A study of Mus musculus with 22 samples.

Results

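Astrocytes and tanycytes are the glial cells of the hypothalamus that take up transmitter, move water and ions, and line the third ventricle. The 10 genes described here were listed as markers of these cells: the astrocyte genes Aqp4, Gfap, Slc1a2, Slc1a3 and S100b, the radial glia and progenitor genes Sox2 and Vim, and the tanycyte genes Rax, Col23a1 and Ranbp3l. They were chosen by symbol, with earlier results of these data known, and are 10 of the 19935 genes measured by probe sets that carry a single gene symbol. Each of the 10 was read by 1 probe set. The names say how the genes were listed. No correlation of the 10 with the mean of the wider astrocyte or tanycyte list passed adjustment. Those of Vim, Ranbp3l and Gfap with the mean of pericyte and fibroblast genes did, with values given below.

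The arrays measured RNA of the hypothalamus of male C57bl6 mice aged 9 to 12 weeks, which the labels give as IL-6 KO, lacking the fever cytokine interleukin-6, or as wild-type (WT) littermates. Mice were given 1 intraperitoneal dose of LPS, a bacterial cell wall component that sets off inflammation and fever, at 120 µg/kg, or saline, and were killed 3 h later. There were 7 arrays of KO mice after LPS, 4 of KO mice after saline, 7 of WT mice after LPS and 4 of WT mice after saline. All mice were perfused with saline before dissection, and the labels name neither the KO allele nor whether each array held RNA of a separate mouse, and the p-values below therefore speak of variation among arrays. The design text asked which genes differ between KO and WT mice under LPS.

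Values are log2 differences from the median array: each probe set was centred on its own median in the deposited table. They show how a gene differs between arrays, not its level, so no gene is set against another in level, and the presence of astrocytes, tanycytes or any other cell could not be checked from them. In whole tissue, fewer cells of a type and less RNA per cell cannot be told apart. Il6, the targeted gene, was no lower in the arrays labelled KO. It averaged 0.24 ± 0.20 in KO mice and 0.07 ± 0.14 in WT mice after LPS (SD, n = 7 each). After saline it averaged -0.12 ± 0.04 in KO mice and -0.14 ± 0.04 in WT mice (SD, n = 4 each). LPS minus saline of Il6 passed in KO mice (0.36, adjusted p = 0.0193 by limma) and not in WT mice (0.21, adjusted p = 0.457). The interaction of Il6 was 0.15 (interval -0.09 to 0.39). The position of its probes relative to the disrupted part is not given in the sources used here, so Il6 does not check the genotype labels, and KO and WT below are the labels. Arrays 1 to 11 and arrays 12 to 22, numbered in the titles, differed in 4286 genes with the groups accounted for (21.5% of all genes, limma, adjusted p under 0.05), and the later arrays held 5 of the 7 KO LPS arrays but 2 of the 7 WT LPS arrays. The list mean of choroid plexus genes was as high as 1.06 in a WT saline array, and that of pituitary genes as high as 1.06 in a KO LPS array and 1.16 in a KO saline array.

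As background, Sox2 is a transcription factor that keeps neural stem and progenitor cells undifferentiated and remains on in astrocytes and tanycytes. Gfap and Vim encode intermediate filament proteins that rise in reactive astrocytes. Gfap is a known target of STAT3, the factor that IL-6 family cytokines activate. Aqp4 encodes the water channel of astrocyte endfeet, Slc1a2 (GLT-1) and Slc1a3 (GLAST) the glutamate transporters, S100b a calcium-binding protein, Rax the homeobox factor of tanycytes and the hypothalamic primordium, Col23a1 a transmembrane collagen, and Ranbp3l a Ran-binding protein linked to the nuclear export of BMP-regulated Smads.

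RefSeq promoter windows, which run from 250 bases before to 50 bases after the annotated start (build GRCm38.p6), were given for 8 of the 10 genes. The windows of 3 are shown: the members whose LPS difference passed the test, and Gfap, the classic reactive astrocyte gene, which did not. Capitals mark matches to 4 motifs searched on both strands, which were a STAT site (TTCNNNGAA), an NF-kB site (GGG, any 2 bases, then TTTCC), an interferon element (TTTC, any 2 bases, then TTTC) and an RBPJ site (TGGGAA, the Notch effector).
Sox2, chr3:34649745-34650044, plus strand: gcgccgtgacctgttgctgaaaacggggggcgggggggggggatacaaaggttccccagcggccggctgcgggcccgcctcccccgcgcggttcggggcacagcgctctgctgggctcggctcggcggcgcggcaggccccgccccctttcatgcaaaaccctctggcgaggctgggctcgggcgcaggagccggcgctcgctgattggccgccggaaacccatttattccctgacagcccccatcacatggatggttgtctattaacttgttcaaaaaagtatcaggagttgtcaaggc
Ranbp3l, chr15:8967699-8967998, plus strand: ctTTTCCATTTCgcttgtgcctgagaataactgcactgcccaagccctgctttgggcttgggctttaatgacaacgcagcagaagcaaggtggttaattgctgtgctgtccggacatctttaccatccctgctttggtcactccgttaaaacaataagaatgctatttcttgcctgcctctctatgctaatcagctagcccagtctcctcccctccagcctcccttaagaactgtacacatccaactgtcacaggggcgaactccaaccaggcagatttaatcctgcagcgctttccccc
Gfap, chr11:102897151-102897450, minus strand: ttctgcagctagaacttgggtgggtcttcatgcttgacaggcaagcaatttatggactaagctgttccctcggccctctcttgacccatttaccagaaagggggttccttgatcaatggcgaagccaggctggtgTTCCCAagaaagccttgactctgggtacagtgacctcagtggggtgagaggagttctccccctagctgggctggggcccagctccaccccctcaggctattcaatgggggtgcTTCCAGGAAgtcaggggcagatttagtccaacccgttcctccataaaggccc

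The Sox2 window, with 66.3% G and C, held none of the 4 motifs as written. The Gfap window held a STAT match, TTCCAGGAA, starting at -2 relative to the start site, and an RBPJ match, TTCCCA on the shown strand, starting at -115. The Ranbp3l window held an interferon element, TTTCCATTTC, starting at -248. Of the other 5 windows, that of Slc1a3 held a STAT match, that of S100b an RBPJ match and that of Vim an NF-kB match, while those of Slc1a2 and Col23a1 held none. Among 32851 RefSeq windows of this length, 8.3% held the STAT motif, 1.63% the NF-kB motif, 3.44% the interferon element and 25.6% the RBPJ motif. A match is only a match of letters, and the motifs were not tested for use.

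Sox2 was lower after LPS in mice of both genotypes, and it was the member with the smallest p in either one. Sox2 (probe set 10491477, chromosome 3) ranged from -0.26 to 0.22 with a median of -0.17 in the 7 KO LPS arrays, while the 4 KO saline arrays read 0.48, 0.45, 0.36 and 0.38. In the WT LPS arrays it ranged from -0.36 to 0.00 with a median of -0.21, while the WT saline arrays read 0.35, 0.04, 0.23 and 0.39. Every LPS array lay below every saline array of its genotype. How many of all genes had groups that lay apart was not counted, here or for the genes below. LPS minus saline was -0.53 in KO mice (SE 0.08, 95% interval -0.71 to -0.36, adjusted p = 0.000269), a 1.45-fold lower value, and -0.43 in WT mice (SE 0.08, interval -0.60 to -0.26, adjusted p = 0.00281), 1.35-fold lower (limma, adjusted over all 19935 genes). Averaged over the genotypes the difference was -0.48 (SE 0.06, adjusted p = 3.68e-06), which ranked 139 of all genes by p. Another fit left out 4 arrays high in choroid plexus or pituitary genes, an array of each group. They were WT saline replicate 1, WT LPS replicate 5, KO saline replicate 2 and KO LPS replicate 3. Of these, WT LPS replicate 5 was the least raised, with a choroid plexus list mean of 0.37. WT LPS replicate 2, with a choroid plexus list mean of 0.32, and KO LPS replicate 5, with a pituitary list mean of 0.58, stayed in. In that fit the Sox2 difference was -0.51 in KO mice (limma, adjusted p = 0.00639) and -0.37 in WT mice (adjusted p = 0.0699). The WT difference no longer passed. WT LPS replicate 5 held the lowest Sox2 value of its group (-0.36).

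The groups ordered, from low to high, as WT LPS (-0.18 ± 0.13, SD, n = 7), KO LPS (-0.12 ± 0.17, SD, n = 7), WT saline (0.25 ± 0.16, SD, n = 4) and KO saline (0.42 ± 0.05, SD, n = 4). The neighbours that share a treatment did not differ beyond their spread. KO minus WT was 0.06 (SE 0.07, adjusted p = 0.766) after LPS and 0.17 (SE 0.09, adjusted p = 0.84) after saline. The Sox2 response itself differed between genotypes by -0.10, with an interval from -0.35 to 0.14 (interaction, limma). Within arrays 1 to 11 the LPS difference was -0.68 in KO mice (adjusted p = 0.0373) and -0.41 in WT mice (adjusted p = 0.0153). Within arrays 12 to 22 it was -0.48 in KO mice (adjusted p = 0.0395) and -0.49 in WT mice (adjusted p = 0.49). Saline was 1 array for KO mice in the first of these blocks and for WT mice in the second, so those differences rest on a lone array assumed to vary like the other groups. In RefSeq, Sox2 lies inside the overlapping transcript Sox2ot, and signal of the 2 was not told apart here.

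Ranbp3l was lower after LPS in WT mice, the largest called difference among the members, and varied widely in KO mice after saline. Ranbp3l (probe set 10422946, chromosome 15) ranged from -0.46 to 0.18 with a median of -0.03 in the KO LPS arrays, against 0.85, 0.20, 1.24 and -0.50 in the KO saline arrays. In the WT LPS arrays it ranged from -0.52 to 0.11 with a median of -0.30, against 0.33, 0.996, 0.74 and 0.41 in the WT saline arrays. The WT groups did not overlap, and the KO groups did, because KO saline replicate 4 read lower than every KO LPS array. LPS minus saline was -0.49 in KO mice (SE 0.21, interval -0.93 to -0.06, adjusted p = 0.679 by limma). In WT mice it was -0.89 (SE 0.21, interval -1.33 to -0.45, adjusted p = 0.0216), 1.85-fold lower, and averaged over genotypes -0.69 (SE 0.15, adjusted p = 0.00611). These SEs and intervals rest on 1 spread shared by the 4 groups. The SD of Ranbp3l was 0.76 in the KO saline arrays but 0.21 to 0.31 in the other groups. The KO interval therefore does not reflect the wider spread of the KO saline arrays. The same holds for the average, and for the interaction and the saline genotype difference below.

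The Ranbp3l responses of the genotypes were not shown to differ: the interaction was 0.40 (SE 0.30, interval -0.22 to 1.01), 0.08 without KO saline replicate 4, 0.02 within arrays 1 to 11 and 0.31 within arrays 12 to 22. Within arrays 1 to 11 LPS minus saline of Ranbp3l was -0.95 in KO mice (adjusted p = 0.114, 1 saline array) and -0.97 in WT mice (adjusted p = 0.00201), and within arrays 12 to 22 it was -0.34 in KO mice (adjusted p = 0.866) and -0.65 in WT mice (adjusted p = 0.907, 1 saline array). KO minus WT was 0.22 (SE 0.18, adjusted p = 0.642) after LPS and -0.17 (SE 0.24, adjusted p = 0.906) after saline, and the sign of the saline difference turned without KO saline replicate 4 (0.14) and within arrays 1 to 11 (0.16). Single saline arrays decided the call within a genotype. Without KO saline replicate 4 the KO difference was -0.81 and passed the test (adjusted p = 0.0157). Without WT saline replicate 2 the WT difference was -0.76 (adjusted p = 0.15) and without WT saline replicate 3 it was -0.85 (adjusted p = 0.0915), and neither passed. Nor did the WT difference without the 4 arrays named above as high in choroid plexus or pituitary genes (-0.94, limma, adjusted p = 0.0616). These include WT LPS replicate 5, the lowest WT LPS array for Ranbp3l (-0.52). From low to high the groups ordered as WT LPS (-0.27 ± 0.21, SD, n = 7), KO LPS (-0.05 ± 0.22, SD, n = 7), KO saline (0.45 ± 0.76, SD, n = 4) and WT saline (0.62 ± 0.31, SD, n = 4), and the order of the saline groups rests on KO saline replicate 4.

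The other 8 members were not called after LPS in either genotype or on average. In all, 1 of 10 members (Sox2) was called in KO mice, where 1.34% of all genes were called, 2 of 10 (Sox2 and Ranbp3l) in WT mice, where 1.8% were, and the same 2 of 10 on average, where 2.76% were. The median LPS difference of the 10 was -0.05 in KO mice and -0.03 in WT mice, beside a median of -0.01 over all genes in either genotype. Their values by array show how much the members differ in spread.

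**Figure D1:**
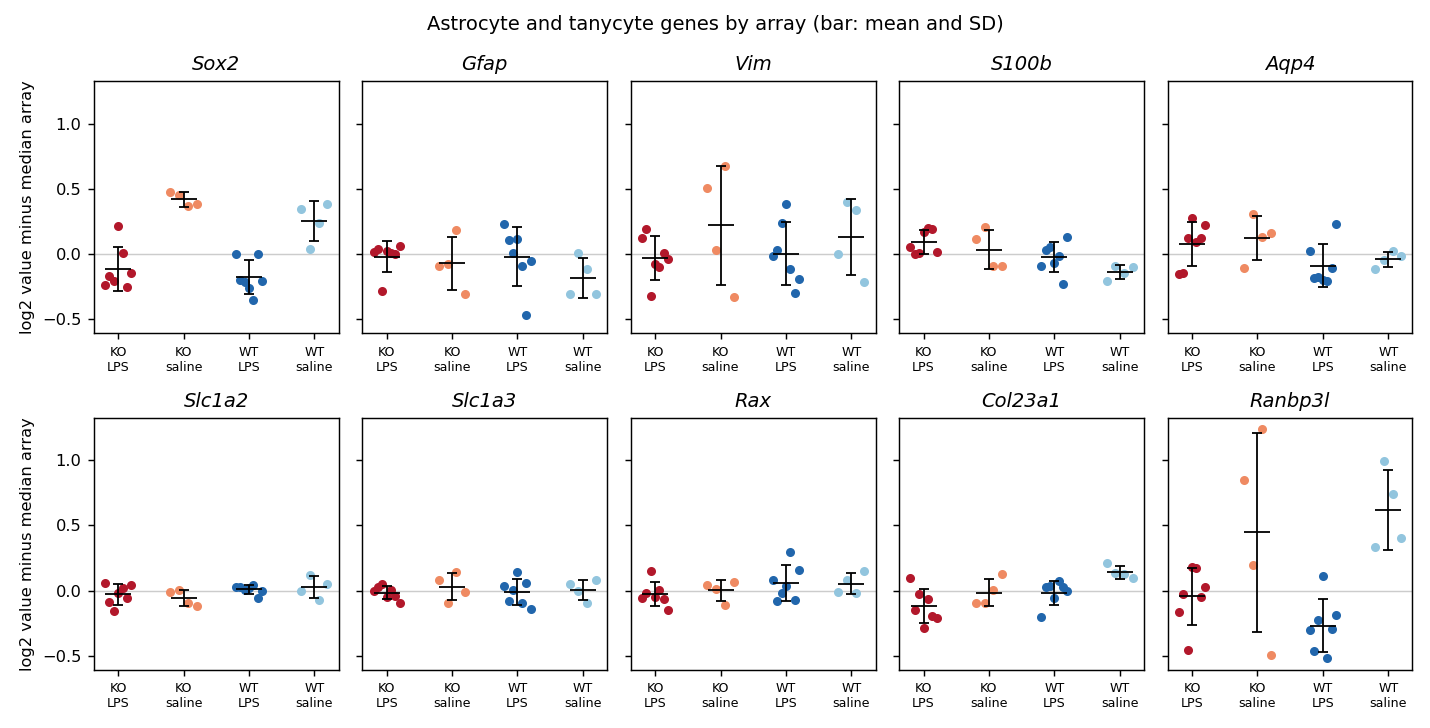
Value of each of the 10 genes on each array (vertical axis, log2 difference from the median array) by group, with points for arrays and bars for the group mean and SD. Every LPS point of Sox2 lies below every saline point of its genotype, and the KO saline points of Ranbp3l run from -0.50 to 1.24.

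The intermediate filament genes did not pass the test for LPS. Gfap (probe set 10391798, chromosome 11) ranged from -0.29 to 0.06 with a median of 0.01 in the KO LPS arrays and averaged -0.07 ± 0.20 in the KO saline arrays (SD, n = 4). In WT mice it ranged from -0.47 to 0.23 with a median of 0.00 after LPS and averaged -0.18 ± 0.15 after saline (SD, n = 4). The groups overlapped in either genotype. LPS minus saline was 0.05 in KO mice (SE 0.10, interval -0.16 to 0.26) and 0.16 in WT mice (SE 0.10, interval -0.05 to 0.38), and averaged 0.11 (SE 0.07, adjusted p = 0.801). The WT interval thus reaches a 1.3-fold increase, and larger increases lie outside it.

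Vim (probe set 10469322, chromosome 2) ranged from -0.33 to 0.19 with a median of -0.04 in the KO LPS arrays, against 0.50, 0.03, 0.68 and -0.33 in the KO saline arrays. In the WT LPS arrays it ranged from -0.30 to 0.38 with a median of -0.02, against 0.00, 0.40, 0.34 and -0.22 in the WT saline arrays. The groups overlapped, and the widest spread again fell among the KO saline arrays. LPS minus saline was -0.25 in KO mice (SE 0.16, interval -0.58 to 0.07) and -0.13 in WT mice (SE 0.16, interval -0.45 to 0.20), with an average of -0.19 (SE 0.11, adjusted p = 0.696).

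The glutamate transporter genes were the most even of the 10 across arrays. Slc1a2 (probe set 10474141, chromosome 2) had an SD within groups of 0.07, wider than 11.4% of all genes, and Slc1a3 (probe set 10427590, chromosome 15) one of 0.08, at 27.8%. LPS minus saline of Slc1a2 was 0.03 in KO mice (interval -0.07 to 0.12) and -0.02 in WT mice (interval -0.11 to 0.08). That of Slc1a3 was -0.05 in KO mice (interval -0.16 to 0.07) and -0.02 in WT mice (interval -0.13 to 0.09). These intervals are narrow, so they leave out LPS differences of either transporter above 0.12 and below -0.16 on the log2 scale.

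Aqp4 (probe set 10457614, chromosome 18) gave -0.05 in KO mice (SE 0.09, interval -0.23 to 0.14) and -0.05 in WT mice (SE 0.09, interval -0.23 to 0.14) for LPS minus saline. S100b (probe set 10364149, chromosome 10) gave 0.06 in KO mice (interval -0.08 to 0.19) and 0.11 in WT mice (interval -0.02 to 0.25). Neither passed the test. In RefSeq, Aqp4 overlaps A830021F12Rik, and Slc1a2 overlaps Gm13872, so signal of these pairs was not told apart.

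The other tanycyte genes did not pass either. Rax (probe set 10459471, chromosome 18) ranged from -0.15 to 0.15 with a median of -0.05 in the KO LPS arrays and averaged 0.00 ± 0.08 in the KO saline arrays (SD, n = 4), and its LPS difference was -0.03 in KO mice (interval -0.16 to 0.11) and 0.00 in WT mice (interval -0.13 to 0.14). Col23a1 (probe set 10375838, chromosome 11) ranged from -0.29 to 0.10 with a median of -0.15 in the KO LPS arrays, against -0.10, -0.10, 0.00 and 0.12 in the KO saline arrays. In WT mice it ranged from -0.21 to 0.07 with a median of 0.02 after LPS, against 0.21, 0.13, 0.13 and 0.09 after saline. The KO groups overlapped and the WT groups did not, and the share of all genes with WT groups apart was not counted. LPS minus saline of Col23a1 was -0.10 in KO mice (SE 0.06, adjusted p = 0.999773) and -0.16 in WT mice (SE 0.06, unadjusted p = 0.0219, adjusted p = 0.533 by limma), and averaged -0.13 (SE 0.05, adjusted p = 0.2).

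**Figure D2:**
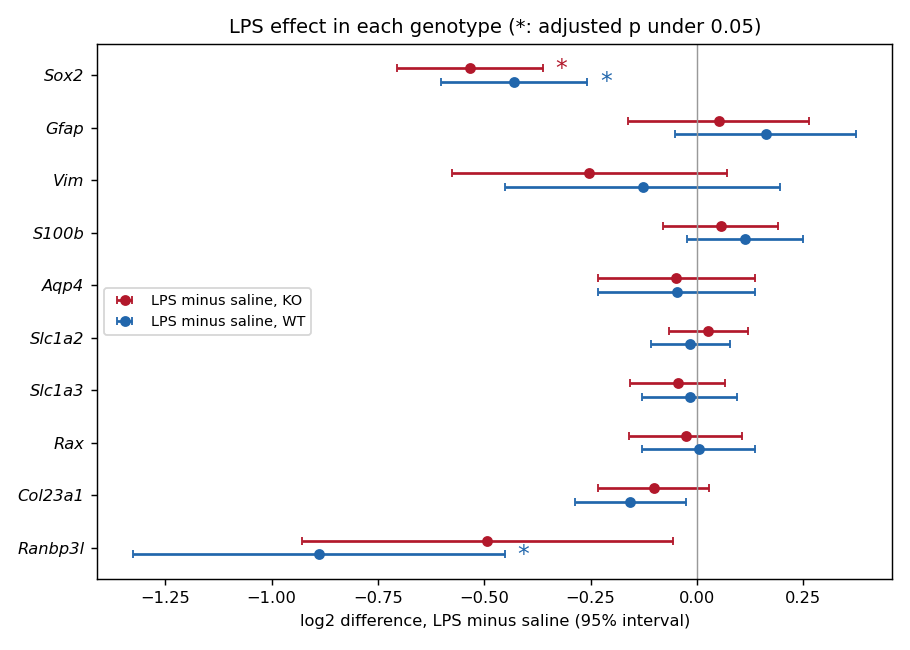
LPS minus saline of each of the 10 genes in KO and in WT mice (horizontal axis, log2 difference, with 95% intervals from limma and asterisks for an adjusted p under 0.05). Sox2 is lower in both genotypes and Ranbp3l in WT mice, and the intervals of Slc1a2, Slc1a3 and Rax are narrow and span 0.

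No member was called between the genotypes. KO against WT under LPS called 0 of 10 members, where 0.0401% of all genes were called (8 of 19935), and KO against WT under saline called 0 of 10, where 0.00502% were (1 gene). The interaction called 0 of 10 members, where 0% were. All genes considered, limma gave 2267, 1030 and 327 genes with an unadjusted p under 0.05 in these 3 comparisons. Among the members Aqp4 and S100b had an unadjusted p under 0.05 under LPS, S100b and Col23a1 had one under saline, and 0 of 10 had one in the interaction.

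The Aqp4 difference between the genotypes moved with array number. In the KO LPS arrays it ranged from -0.16 to 0.27 with a median of 0.12, and in the WT LPS arrays from -0.21 to 0.23 with a median of -0.18, and the groups overlapped. KO minus WT under LPS was 0.16 (SE 0.08, unadjusted p = 0.0421, adjusted p = 0.426), and 0.07 (SE 0.06) with the array block in the fit. Arrays 12 to 22 minus arrays 1 to 11 was 0.23 for Aqp4 (SE 0.05, adjusted p = 0.00157) and -0.34 for Vim (SE 0.10, adjusted p = 0.0116), the 2 of 10 members called in that comparison, where 21.5% of all genes were. S100b differed less with array number, by 0.01 (SE 0.05). Its KO minus WT difference was 0.12 under LPS (SE 0.06, unadjusted p = 0.0497, adjusted p = 0.439) and 0.17 under saline (SE 0.07, unadjusted p = 0.0281, adjusted p = 0.84), and 0.11 and 0.17 with the array block.

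Genes of neural progenitors and of Notch and BMP signalling, the setting in which Sox2 acts, were listed beside it, with earlier results of these data known. LPS averaged over genotypes called 2.76% of all genes, 396 higher and 154 lower. The median difference of the 20 listed genes was -0.09, against -0.01 over all genes. Of the 20 listed genes 5 were lower and 0 higher. These were Id1, a target of BMP signalling (-0.25, SE 0.03, adjusted p = 1.78e-05), Sox9, a gliogenic factor (-0.23, SE 0.04, adjusted p = 0.00225), and the Notch targets Hes5 (-0.21, SE 0.05, adjusted p = 0.016), Hes1 (-0.19, SE 0.04, adjusted p = 0.00327) and Hey1 (-0.15, SE 0.03, adjusted p = 0.01). Within genotypes, 2 of 20 passed in KO mice, Id1 (-0.24) and Hes1 (-0.23), where 1.34% of all genes were called. In WT mice, where 1.8% were, 2 of 20 passed, Id1 (-0.26) and Hes5 (-0.29). No gene of the list was called between the genotypes, under LPS or saline, or in the interaction. At an unadjusted p under 0.05 (limma) the list held 5 genes under LPS, 2 under saline and 0 in the interaction. All 19935 genes gave 2267, 1030 and 327.

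Single arrays decided some of these calls: Hes1 in KO mice was lost when any 1 of 8 arrays was left out (adjusted p 0.0531 to 0.144), Hes5 in WT mice with any 1 of 9 (0.0523 to 0.136), Hes5 on average without KO saline replicate 4 (0.0532), and Id1 in KO mice without KO saline replicate 1 (0.0534). The values without those arrays lay between -0.25 and -0.22 for Hes1, between -0.30 and -0.27 for Hes5 in WT mice, at -0.19 for Hes5 on average and at -0.18 for Id1. The other SOXB1 family genes listed did not pass: Sox1 gave -0.08 (SE 0.05, adjusted p = 0.824 by limma) and Sox3 -0.09 (SE 0.04, adjusted p = 0.56) on average. The tanycyte and progenitor filament gene Nes gave -0.18 (SE 0.06, adjusted p = 0.138).

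**Figure D3:**
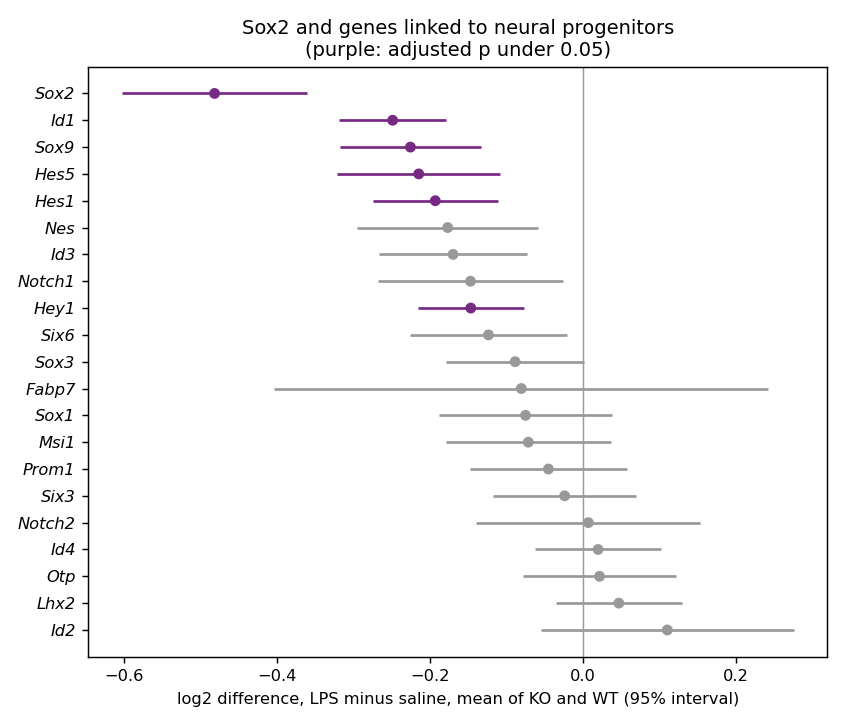
LPS minus saline averaged over KO and WT mice (horizontal axis, log2 difference with 95% interval) for Sox2 and 20 genes linked to neural progenitors. Sox2, at -0.48, lies farthest from 0, and purple marks it and the 5 listed genes with an adjusted p under 0.05, all lower.

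Endothelial genes also fell. On average 12 of 15 measured endothelial markers were lower after LPS and 0 higher, where 2.76% of all genes were called. In KO mice 9 of 15 were lower (1.34% of all genes called) and in WT mice 10 of 15 (1.8%). Among those lower on average were Cldn5, the tight junction gene (-1.11, SE 0.08, adjusted p = 3.5e-10 by limma), and Slco1a4, a transporter (-1.26, SE 0.11, adjusted p = 9.02e-09). Tek, the angiopoietin receptor, was another (-0.69, SE 0.06, adjusted p = 2.86e-09). The mean over the endothelial list ran from -0.11 to 0.06 in KO LPS arrays against 0.24 to 0.39 in KO saline arrays, and from -0.16 to -0.08 in WT LPS arrays against 0.20 to 0.34 in WT saline arrays, so the groups did not overlap in either genotype. Id1, Sox9, Hes1 and Hey1 are also made by other cells, and the part of endothelial cells in the Sox2 and progenitor gene differences was not tested. Within groups Sox2 and the endothelial mean correlated at r = 0.35 (rho = 0.33, permutation p = 0.152, adjusted p = 0.524, 22 arrays), at 0.03 within arrays 1 to 11 and at 0.75 within arrays 12 to 22.

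Of the 30 measured genes in a wider astrocyte list, 3 were higher and 1 lower after LPS on average, where 2.76% of all genes were called. The median difference was 0.00, against -0.01 over all genes. Htra1, a secreted protease, was higher by 0.48 in KO mice (SE 0.08, adjusted p = 0.000694) and by 0.41 in WT mice (SE 0.08, adjusted p = 0.00352). On average Glul, glutamine synthetase, was 0.12 higher (SE 0.03, adjusted p = 0.0236) and Plcd4, a phospholipase, 0.16 higher (SE 0.04, adjusted p = 0.0403), and Sox9 was the gene that was lower. The Glul call was lost without any 1 of 4 saline arrays (0.11 to 0.12, adjusted p 0.0515 to 0.0796), and the Plcd4 call without any 1 of 15 arrays (0.14 to 0.17, adjusted p 0.0535 to 0.141). Aldh1l1 and Gja1, named after their values were seen, did not pass. Aldh1l1 gave 0.04 (SE 0.03, adjusted p = 0.869 by limma) and Gja1 -0.01 (SE 0.04, adjusted p = 0.982) on average. At an unadjusted p under 0.05 (limma) the list held 8 of 30 genes on average, and all 19935 genes gave 1821.

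Of 15 further tanycyte genes 3 were higher and 0 lower on average, where 2.76% of all genes were called, with a list median of 0.00. Dio2, which activates thyroid hormone, was higher by 0.46 in KO mice (SE 0.08, adjusted p = 0.000999) and by 0.53 in WT mice (SE 0.08, adjusted p = 0.000151). Adm, the vasoactive peptide adrenomedullin, was 0.31 higher (SE 0.07, adjusted p = 0.0103) and Vcan, a matrix proteoglycan, 0.20 higher (SE 0.04, adjusted p = 0.002) on average. Adm and Vcan are also made by other cells. In the same arrays Rax, Col23a1 and Ranbp3l gave -0.01, -0.13 and -0.69 on average, so genes listed as tanycyte markers did not move one way.

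Of 17 measured partners of the endfoot and the glutamate cycle, 1 was called on average, where 2.76% of all genes were. Slc38a5, a glutamine transporter, was lower by 0.25 (log2 difference -0.25, SE 0.05, adjusted p = 0.000913 by limma). The cells behind the Slc38a5 difference were not told apart. Kcnj10, the potassium channel of astrocyte endfeet, gave -0.04 (SE 0.03, adjusted p = 0.897). None of 10 ependymal genes was called on average (smallest p for Tekt1, -0.09, adjusted p = 0.507 by limma, the 1 gene with an unadjusted p under 0.05). Of 16 other intermediate filament and S100 genes 1 was called on average: Synm, synemin, which assembles with Vim and Gfap, was higher by 0.14 (SE 0.03, adjusted p = 0.00596).

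Some genes listed for reactive astrocytes rose, while Gfap and Vim did not pass the test. Of 11 shared reactive genes 4 were higher in KO mice (1.34% of all genes called), 6 in WT mice (1.8%) and 5 on average (2.76%), with 0 lower. The share of 2.76% also applies to the A1 and A2 lists below. Cxcl10, a chemokine, was higher by 4.41 in KO mice (SE 0.19, adjusted p = 9.02e-14) and by 4.88 in WT mice (SE 0.19, adjusted p = 1.89e-14). Lcn2, an iron-binding protein, was higher by 2.31 in KO mice (SE 0.20, adjusted p = 4.37e-08) and by 3.39 in WT mice (SE 0.20, adjusted p = 4.09e-11). Osmr, the oncostatin M receptor, was higher by 0.96 in KO mice (SE 0.15, adjusted p = 0.000193) and by 1.23 in WT mice (SE 0.15, adjusted p = 4.2e-06).

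Steap4, a metalloreductase, passed in both genotypes, and Cp, ceruloplasmin, and Serpina3n, a protease inhibitor, in WT mice, the Serpina3n call being lost without WT saline replicate 3 or 4 (0.35 to 0.38, adjusted p 0.0879 to 0.121). Under LPS Lcn2 was lower in KO than in WT mice by 1.04 (log2 difference -1.04, SE 0.17, adjusted p = 0.0164), a call lost without any 1 of 3 arrays (adjusted p 0.057 to 0.0642) and with the array block in the fit (-0.88, adjusted p = 0.0722), and its interaction was -1.08 (SE 0.29, adjusted p = 0.999994). Of the 7 measured genes of the A1 list 3 were higher on average, Iigp1 (2.60, SE 0.09, adjusted p = 4.21e-16), Fkbp5 (0.96, SE 0.08, adjusted p = 2.78e-09) and Psmb8 (0.20, SE 0.04, adjusted p = 0.00673), and of the 12 of the A2 list 2 were, Ptgs2 (1.45, SE 0.16, adjusted p = 6.8e-07) and Cd14 (0.55, SE 0.07, adjusted p = 9.12e-06). These genes are also made by endothelial cells, microglia or pericytes, which were not separated here.

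Fewer markers of other cells were called, beside 2.76% of all genes on average over the genotypes. On average 1 of 10 microglia genes was lower (Cx3cr1, -0.35, SE 0.06, adjusted p = 0.000265) and 1 of 9 oligodendrocyte genes (Opalin, -0.36, SE 0.08, adjusted p = 0.0149). None was called of 13 pericyte and fibroblast genes (smallest p for Pdgfrb, adjusted p = 0.686), 10 neuron genes (Snap25, 0.671), 8 choroid plexus genes (Kcnj13, 0.867), 7 pituitary genes (Fshb, 0.737) or 9 hypothalamic neuropeptide and regulator genes (Sim1, 0.367), all by limma. At an unadjusted p under 0.05 these lists held 0 genes, except the hypothalamic list, which held 1. The microglia list held 5 of 10 by that measure, with 8 of its 10 differences negative and 2 positive. The oligodendrocyte list held 2 of 9, with 3 negative and 6 positive.

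The members did not vary as 1 group between arrays of the same group. Over 45 pairs, with the group means removed, 2 correlations passed adjustment for the 45 (permutations within groups, 22 arrays) and 6 had an unadjusted p under 0.05. Vim and Ranbp3l correlated at r = 0.81 (permutation p = 0.0006, adjusted p = 0.0135) and rho = 0.73 (permutation p = 0.00467, adjusted p = 0.105). Gfap and Vim correlated at r = 0.74 (permutation p = 0.00051, adjusted p = 0.0135) and rho = 0.75 (permutation p = 0.00074, adjusted p = 0.0333).

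Within arrays 1 to 11 the r of Vim with Ranbp3l was 0.94 and that of Gfap with Vim 0.51, and within arrays 12 to 22 they were 0.97 and 0.82. Leaving out the 2 arrays farthest from the median on the x axis gave 0.68 for Vim with Ranbp3l and 0.73 for Gfap with Vim, each with an adjusted permutation p of 0.0973. Gfap and Ranbp3l correlated at r = 0.60 (permutation p = 0.00444, adjusted p = 0.0666). Sox2 correlated with none of them beyond the permutation spread: its r was -0.19 with Gfap, -0.31 with Vim and 0.03 with Ranbp3l.

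**Figure D4:**
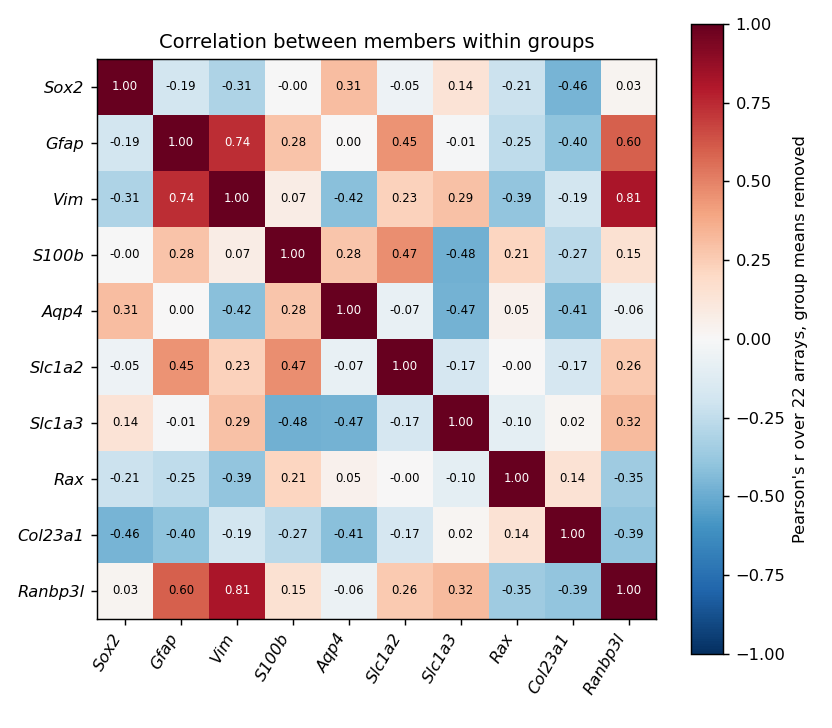
Pearson's r between the 10 genes over 22 arrays after the group means were removed (colour and number). Gfap, Vim and Ranbp3l form the only block of r above 0.5, and Sox2 lies outside it.

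Gfap, Vim and Ranbp3l also varied with the mean of the 13 pericyte and fibroblast genes. Vim correlated with that mean at r = 0.95 (rho = 0.93, permutation p = 1e-05, the smallest that 100000 permutations can give, adjusted p = 0.001 over 100 relations). Ranbp3l correlated with it at r = 0.81 (rho = 0.76, permutation p = 0.00021, adjusted p = 0.00525) and Gfap at r = 0.80 (rho = 0.79, permutation p = 0.00018, adjusted p = 0.00525). Within arrays 1 to 11 the r was 0.91 for Vim, 0.94 for Ranbp3l and 0.70 for Gfap, and within arrays 12 to 22 it was 0.96, 0.90 and 0.88.

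With the 2 farthest arrays left out the r was 0.92 for Vim (adjusted p = 0.001, permutation), 0.70 for Ranbp3l and 0.81 for Gfap (adjusted p = 0.0852 for either, permutation). KO saline replicate 4, the lowest saline array for Ranbp3l and Vim, had the lowest pericyte and fibroblast mean of all arrays (-0.23), and KO saline replicate 3, the highest array for both genes, had the highest (0.23). The same mean read 0.22 and 0.16 in WT saline replicates 2 and 3, the highest WT arrays for Ranbp3l. How far the amount of such cells in each sample bears on the Ranbp3l difference was not tested.

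**Figure D5:**
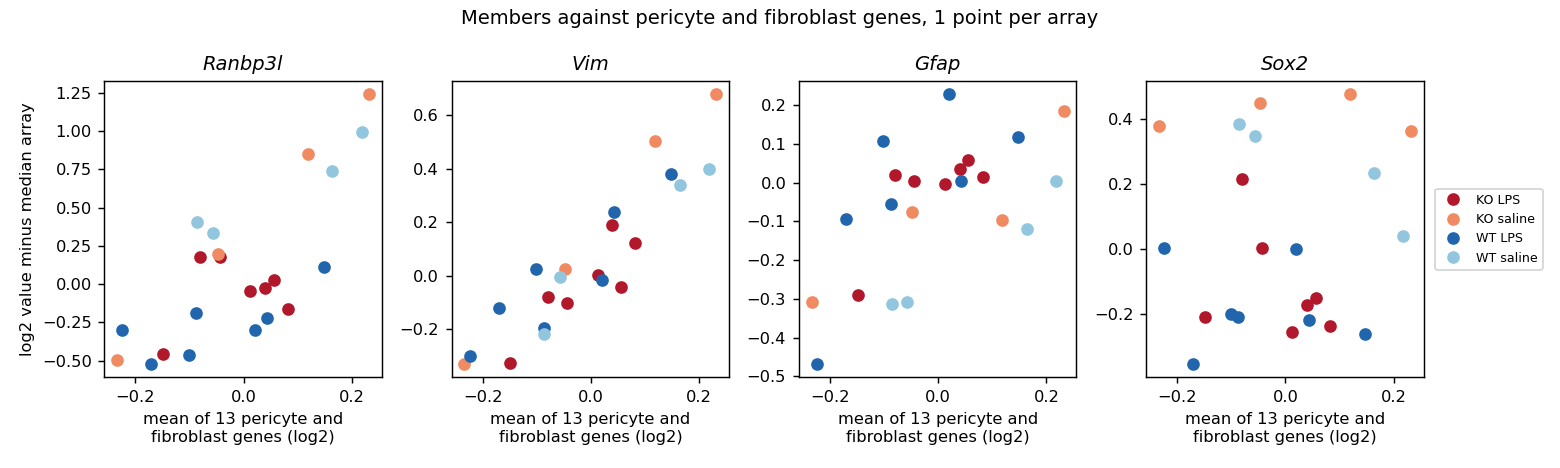
Ranbp3l, Vim, Gfap and Sox2 (vertical axes, log2 difference from the median array) against the mean of 13 pericyte and fibroblast genes (horizontal axis, log2), with 1 point per array coloured by group. The first 3 genes rise with the list mean (r of 0.81, 0.95 and 0.80 within groups), and Sox2 does not (r of -0.33).

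Of the 100 relations between members and list means, 2 more passed. Gfap correlated with the mean of the microglia genes at r = 0.75 (rho = 0.82, permutation p = 0.0002, adjusted p = 0.00525), at 0.73 within arrays 1 to 11, 0.75 within arrays 12 to 22 and 0.69 without the 2 farthest arrays (adjusted p = 0.0852, permutation). S100b correlated with the mean of the oligodendrocyte genes at r = 0.70 (rho = 0.66, permutation p = 0.00164, adjusted p = 0.0328), at 0.86 and 0.70 within the array blocks and 0.61 without the 2 farthest arrays (adjusted p = 0.208, permutation). S100b is also made by oligodendrocyte lineage cells. No member passed with the mean of the wider astrocyte or tanycyte list, where the highest r was 0.64, between Vim and the astrocyte mean (adjusted p = 0.148, permutation).

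The genes whose values followed each member most closely within groups are given as a description, over 22 arrays that share the array block. Vim was followed by Serping1 (r = 0.95), Fn1 (0.95) and Slc22a8 (0.95), Ranbp3l by Thbd (0.90), Foxc2 (0.89) and Abca9 (0.87), and Gfap by Slc6a12 (0.89), Ptgds (0.87) and Itih2 (0.87). Sox2 was followed by Zfp300 (0.77), Hpgd (0.76) and Gpalpp1 (0.73). Aqp4 was followed by Ggct (0.90), Faim (0.86) and Psmd10 (0.85), and S100b by Ctnnb1 (0.86), Dynll2 (0.85) and Gatm (0.85).

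Slc1a2 was followed by Atp5d (0.82), Cox5b (0.81) and Pink1 (0.78), and Slc1a3 by Lonrf2 (0.87), Pnck (0.85) and Glb1l (0.84). Rax was followed by Emilin3 (0.82), Tmem54 (0.81) and Olah (0.79), and Col23a1 by Apoa1 (0.82), Calhm1 (0.82) and Nr0b2 (0.76). With the array block also removed, the 3 genes were unchanged for Slc1a2 and Rax and changed in part or in full for the other members. All 3 changed for S100b, to Ttll7 (0.89), Eif1ax (0.89) and Tlcd4 (0.87). Aqp4 was then followed by Ggct (0.80), Tagln3 (0.78) and Rrp12 (0.77), and Ranbp3l by Thbd (0.93), Vim (0.93) and Fn1 (0.89).

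Spread within groups set how firmly each member could be read. The within-group SD was 0.38 for Ranbp3l, wider than 99.8% of all genes, 0.28 for Vim (99.4%) and 0.18 for Gfap (95.1%), against a median over all genes of 0.10. It was 0.15 for Aqp4 (89.5%) and 0.14 for Sox2 (84.1%), and S100b, Rax and Col23a1 lay between 51.4% and 56.1%. Sox2 passed in both genotypes with a spread wider than most genes, while the difference of Ranbp3l passed with the widest spread of the 10.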

How the data were processed

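RNA of the hypothalamus was hybridised to 22 Affymetrix gene arrays from 200 ng of total RNA each, per the labels' protocols. The deposited values of 28815 probe sets are on a log2 scale and were made by the authors with RMA per the submitters' processing notes, which give no version. The aligner and genome build behind the probe sets are not given in the sources used here. Each probe set's median over the 22 arrays lay within 7.02e-07 of 0, so levels, background and dim probes could not be assessed. The array medians ran from -0.013 to 0.029, and the number of arrays limits the precision. No pair of arrays correlated above 0.627 across probe sets. That correlation was taken on the centred values, which lack the differences in level between probe sets. It therefore does not measure how well the arrays agree in level.

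The 21780 probe sets with 1 gene symbol in the platform annotation were averaged per gene into 19935 genes (998 genes had over 1 probe set), and 7035 probe sets with several symbols or none were left out. In RefSeq (GRCm38.p6) 21689 matched by gene ID. Groups came from the treatment and genotype labels. limma 3.58.1 in R 4.3.3 fitted 4 group means to all arrays, and p-values were two-sided and adjusted by Benjamini-Hochberg over all genes, called at 0.05. The array block was an added term in its own comparison. Correlations used 100000 permutations within groups in Python 3.11.15. The fit and the correlations were tested on simulated data.

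The members, lists and tests were chosen with earlier results of these data known. Named genes were the members, and of each other list up to 4 called genes with the smallest p in a comparison or, where none was called, the 1 with the smallest p, with Aldh1l1, Gja1, Kcnj10, Sox1, Sox3, Nes, Cp and Serpina3n named in addition after their values were seen. Lists covered wider astrocyte, tanycyte, ependymal, endfoot and glutamate, progenitor, reactive, filament and S100, endothelial, pericyte and fibroblast, microglia, oligodendrocyte, neuron, choroid plexus, pituitary and hypothalamic genes. Alternatives changed the array block, the arrays, their weights, the moderation, the normalization and the use of probe sets.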

Additional observations from a re-analysis of the deposited data

Results flagged for a closer look

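Of 40 combinations of a member and a group tested for a single array far from the others, 2 stood out, and chance gives about 1 in 20. Gfap read -0.29 in KO LPS replicate 3, where the other 6 KO LPS arrays lay between 0.00 and 0.06 (gap over range 0.823, critical value 0.568). That array also had the lowest Vim value of its group (-0.33), the lowest Ranbp3l value (-0.46) and a pituitary list mean of 1.06, and the part of any of these was not tested. Slc1a2 read -0.0611 in WT LPS replicate 6, where the others lay between 0.00 and 0.04 (gap over range 0.569, critical value 0.568). No member moved one way in every array of a genotype and the opposite way in the other.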

How the results depend on the processing

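No paired analysis was possible because replicate numbers were given in deposition order and pair no arrays. Of the members called for LPS, Sox2 kept its call in KO mice and on average in all 33 and 32 alternatives and in 31 of 33 in WT mice, and Ranbp3l in 29 of 33 in WT mice and 31 of 32 on average. The WT count fell to 0 without the 4 arrays named above as high in choroid plexus or pituitary genes, an array of each group. There Sox2 gave -0.37 (adjusted p = 0.0699, limma) and Ranbp3l -0.94 (adjusted p = 0.0616). With only arrays 12 to 22 (1 WT saline array) the WT difference was -0.49 for Sox2 and -0.65 for Ranbp3l. The average count was 1 with only arrays 12 to 22, where Ranbp3l gave -0.49 (adjusted p = 0.744, limma). Leaving out each array in turn gave 1 to 2 called members in WT mice and 1 to 2 in KO mice. Of the 2 correlations between members that passed, 0 did within arrays 1 to 11, 0 within arrays 12 to 22 and 0 without the 2 farthest arrays, which all hold fewer arrays. The 55 member differences that were not called gave 1797 alternative values, of which 1 passed and 90 turned sign. The 2 array block calls, Aqp4 and Vim, held in all 29 alternatives. Over all genes, KO against WT under LPS called 8 genes, 0 within either array block, 2 with the array block as a term, 47 without KO LPS replicate 1 and 614 with array weights, and LPS in WT mice called 359, but 45 with only arrays 12 to 22. A dim filter and background correction were not run, because the deposited values hold no levels. Fits of only the groups of a contrast were not run for the average and the interaction, which use all 4 groups.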
